A study of Homo sapiens with 12 samples.

Results

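ATAD2 is the protein that BAY-850 binds, and it belongs to a family of chromatin proteins that share the bromodomain. The expression of 41 bromodomain genes was analysed here out of 26475 gene symbols in the deposited counts. They are ATAD2, its paralog ATAD2B and 39 other genes, taken by symbol from a list of genes that encode bromodomains. PA-1, a human line from an ovarian teratocarcinoma grown in DMEM, and SK-OV-3, a human line from an ovarian adenocarcinoma grown in RPMI, were each kept for 48 h in DMSO, the vehicle, or in BAY-850 at a dose of 5 µM. Each of the 4 groups had 3 biological replicates, giving 12 RNA libraries. Each tumour type is represented by a single line, and the medium differed with the line. SK-OV-3 is known to lack endogenous p53.

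A bromodomain is a small fold of bundled helices with a pocket that holds acetylated lysine, the mark that acetyltransferases place on histone tails. Proteins that carry it bring other activities to acetylated chromatin, among them acetyltransferases, nucleosome remodellers, methyltransferases and the general transcription factor TFIID. ATAD2 joins a bromodomain to an AAA ATPase and is known as a gene switched on in many tumours, with E2F and hormone receptors among its known regulators. BAY-850 acts on the ATAD2 protein, keeping it from acetylated histone, so the ATAD2 mRNA level does not check whether a library was treated.

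Library totals lay between 34544505 and 51840233 counts, and 15629 to 18414 genes had a count. The fewest were in SK-OV-3 BAY-850 replicate 3, the deepest library, while the other 11 had 17425 or more. Genes for ribosomal RNA took 7.94% to 16.9% of a library. Of 6 pluripotency markers, 5 had a mean of 1 or more counts per 1000000 (CPM) in PA-1, with a summed level of 1345 to 1614 CPM, against 6.35 to 9.46 CPM in SK-OV-3. All 6 epithelial markers, ERBB2 among them, averaged at least 1 CPM in SK-OV-3 and summed to 4119 to 4424 CPM with DMSO and 2888 to 3352 CPM with BAY-850 there, and to 922 to 979 and 1005 to 1053 CPM in PA-1. The 6 stroma and blood markers summed to 200.3 to 209.9 CPM with DMSO and 123 to 153 CPM with BAY-850 in SK-OV-3, and to 451 to 559 and 591 to 642 CPM in PA-1. Both sums were apart between treatments in each line, lower with BAY-850 in SK-OV-3 and higher in PA-1, and their part in the members' changes was not tested. Of the stroma and blood markers COL1A1, which some tumour lines also express, made up most. The fibroblast marker DCN and the blood marker PTPRC averaged under 0.1 CPM in every group. CD68 moved against the falling sum of SK-OV-3, where its mean rose under treatment from 28.6 to 39.0 CPM. LUM fell in that line from 6.05 to 1.26 CPM. PECAM1 was mainly a PA-1 transcript, averaging 23.6 CPM in vehicle and 25.4 CPM in treated cells, against 3.17 and 2.65 CPM for SK-OV-3. In such bulk libraries, fewer cells that express a gene and less RNA per cell cannot be told apart.

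ATAD2 mRNA fell under BAY-850 in SK-OV-3. ATAD2 lies on the minus strand of chromosome 8 (GRCh38, 123319850 to 123416350, GENCODE annotation). Its level in SK-OV-3 was 70.3, 83.3 and 84.6 CPM in the DMSO libraries and 54.5, 59.1 and 56.4 CPM in the BAY-850 libraries. The treated libraries all lay below the controls, and the mean went from 79.4 ± 7.91 to 56.7 ± 2.33 CPM (SD, n = 3). The log2 fold change was -0.47 ± 0.08 (SE), a level 0.72 times that of DMSO, with an adjusted p of 0.00140 in edgeR's quasi-likelihood test. The call held in all 18 alternative settings run, between -0.55 and -0.42 on the log2 scale.

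In PA-1 the ATAD2 level was 41.6, 41.5 and 41.1 CPM with DMSO and 38.5, 37.1 and 33.8 CPM with BAY-850. These groups did not overlap either, but the log2 fold change of -0.18 ± 0.07 did not pass (adjusted p = 0.118, 95% interval -0.33 to -0.04). It was -0.08 once each library's trend on GC content was removed, and it passed only when the trend on gene length was removed, 1 of 18 settings. The response of ATAD2 in SK-OV-3 minus that in PA-1 was -0.30 ± 0.11 on the log2 scale (adjusted p = 0.0701), so a difference between the lines was not shown. It passed in 5 of 23 other settings.

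ATAD2B, the close relative of ATAD2 on chromosome 2, was not called in either line. Its level was 22.99, 27.0 and 26.7 CPM with DMSO and 24.2, 26.0 and 21.7 CPM with treatment in PA-1 (log2 fold change -0.09 ± 0.09, adjusted p = 0.590). In SK-OV-3 it was 9.83, 14.7 and 13.9 CPM with DMSO and 13.1, 15.4 and 15.5 CPM with BAY-850 (log2 fold change 0.21 ± 0.15, adjusted p = 0.391, 95% interval -0.13 to 0.55). The libraries of the groups overlapped in both lines. Within a library, the log2 ratio of ATAD2 counts to ATAD2B counts was 0.70 ± 0.13 with DMSO and 0.61 ± 0.08 with BAY-850 in PA-1. In SK-OV-3 it was 2.65 ± 0.17 with DMSO, the lowest of the 3 libraries at 2.50, and 1.96 ± 0.10 with BAY-850, the highest at 2.06.

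**Figure D1:**
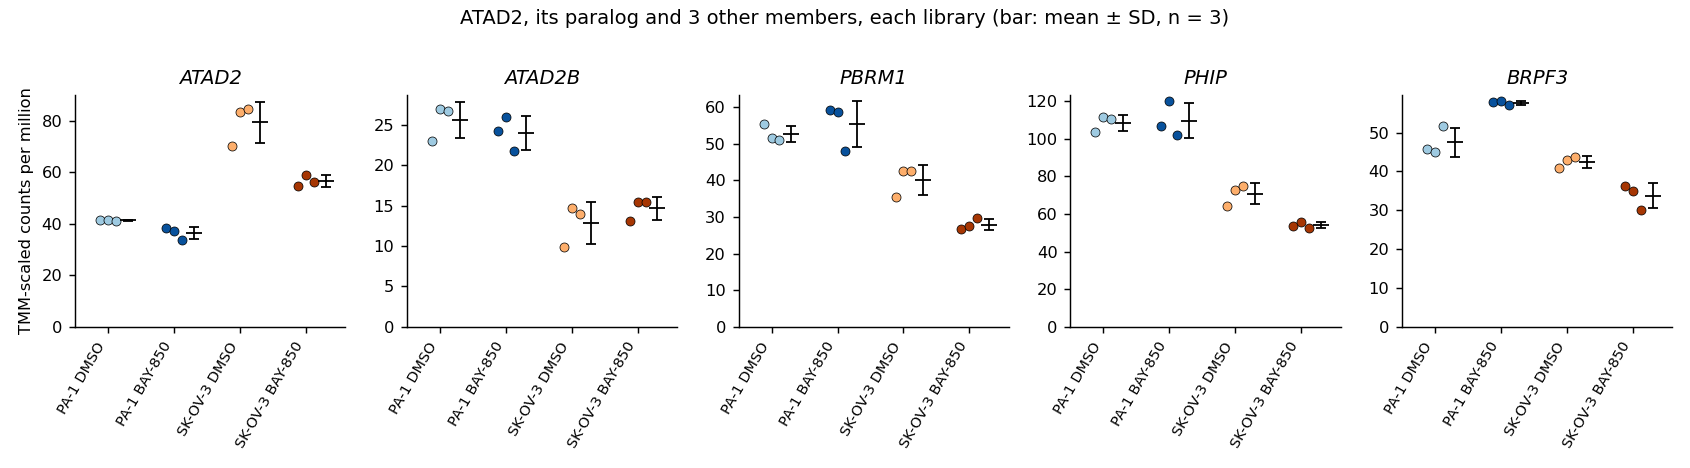
Level of ATAD2, ATAD2B, PBRM1, PHIP and BRPF3 in each of the 12 libraries, in TMM-scaled CPM on axes that start at 0. Points are libraries and bars are the mean ± SD of 3. In SK-OV-3 the BAY-850 libraries of ATAD2, PBRM1, PHIP and BRPF3 lie below all 3 DMSO libraries, and those of ATAD2B overlap them.

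Per kilobase of annotated exon, ATAD2 was in the middle of the family in PA-1 and near its top in SK-OV-3. It ranked 17 of the 41 genes in PA-1 with DMSO at 5.82 ± 0.04 CPM per kb, and 8 in SK-OV-3 with DMSO at 11.2 ± 1.11 CPM per kb. ATAD2B ranked 30 and 36, at 2.44 ± 0.21 and 1.22 ± 0.25 CPM per kb. TRIM28 and the BET gene BRD2 held the first and second place in all 4 groups, TRIM28 at 123 CPM per kb in PA-1 and 83.2 in SK-OV-3 with DMSO. These levels divide by all annotated exons of a gene, used or not.

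Across the family, members were called in both directions in SK-OV-3 and only higher in PA-1, where removing the trend on gene length added 3 lower calls, ATAD2 among them, to 7 higher ones. BRDT, a BET gene of the testis, and TAF1L, a retrogene copy of TAF1, had at most 4 counts in any library and were not tested, and CECR2 had 0 to 6 counts in SK-OV-3 libraries and was not tested there. In SK-OV-3, 11 of 38 tested members were called, 6 higher and 5 lower. Of all 15348 genes tested in that line, 20.4% were called, 10.8% higher and 9.56% lower. The groups did not overlap for 17 of the 38 members, against 38.6% of all genes. The members' median log2 fold change was -0.05, and that of all genes was -0.01.

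In PA-1, 7 of 39 tested members were called, all of them higher. Of all 15212 genes tested there, 7.13% were called, 4.65% higher and 2.48% lower. The groups did not overlap for 15 members, against 27.5% of all genes, and 26 of the 39 members had a log2 fold change above 0, with a median of 0.07 against 0.00 for all genes. None of the 7 calls held in every setting. No member was called when libraries were scaled by their size only, when the GC trend was removed, or without DMSO replicate 2 or without BAY-850 replicate 2. The count was 11 without BAY-850 replicate 3. Calls over all genes shifted too, from 707 higher and 378 lower to 235 and 231 by library size only. They were 398 and 144 with the GC trend removed. They were 275 and 65 without DMSO replicate 2, 273 and 71 without BAY-850 replicate 2, and 810 and 418 without BAY-850 replicate 3.

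**Figure D2:**
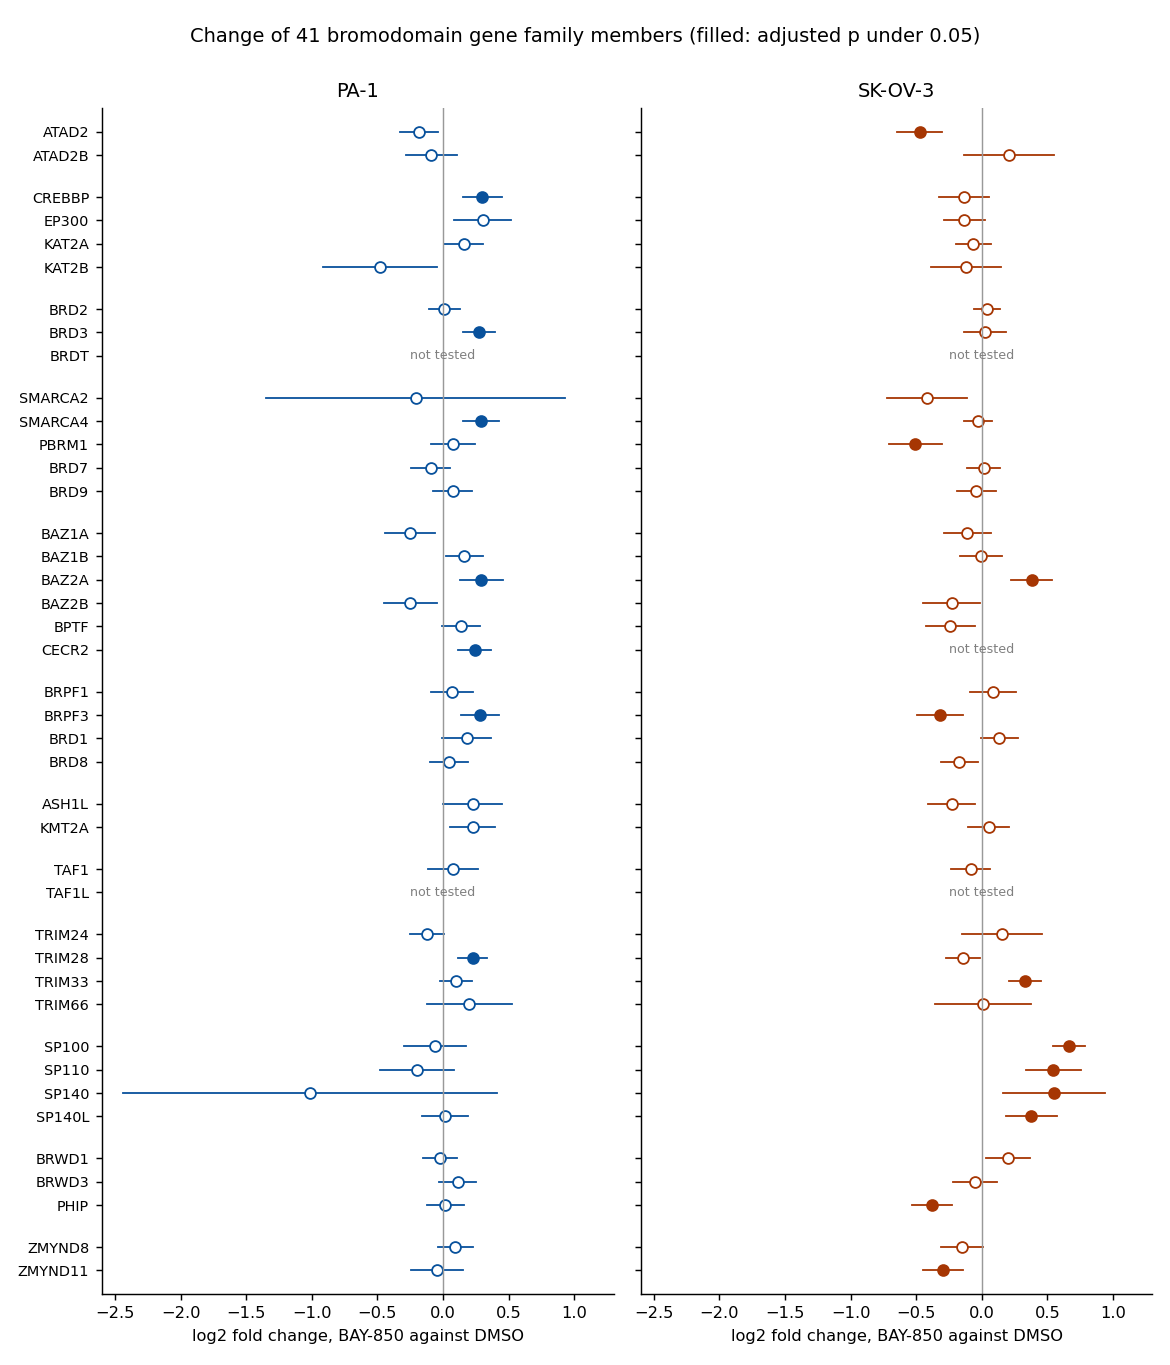
Log2 fold change of each of the 41 genes under BAY-850 in PA-1 (left) and SK-OV-3 (right), grouped by role, with the 95% interval as a line. Filled circles passed at an adjusted p under 0.05. The 7 filled circles of PA-1 all lie right of 0, and in SK-OV-3 the 4 speckled protein genes lie right of 0 and ATAD2, PBRM1, PHIP, ZMYND11 and BRPF3 left of it.

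The speckled protein genes stood together in SK-OV-3, where all 4 rose under BAY-850. SP100, SP110, SP140 and SP140L encode relatives that pair a bromodomain with a SAND domain, a DNA-binding fold. SP100 is a component of PML nuclear bodies, SP110 and SP140 act in defence against pathogens, and interferon is a known inducer of the group. The genes lie side by side on chromosome 2 (GRCh38, GENCODE annotation). SP110 is read from the minus strand at 230167293 to 230225729. SP140 at 230203110 to 230313215, SP140L at 230327184 to 230403732 and SP100 at 230415942 to 230544090 are read from the plus strand.

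Promoters of 300 bases were taken from RefSeq (GRCh38.p14), from 250 bases before to 50 after each gene start, and 35 of the 41 genes had at least 1. The sequences of SP140 (chr2:230225486-230225785), SP140L (chr2:230326943-230327242) and SP100 (chr2:230415951-230416250), all on the plus strand, are shown because members that moved together carry the same letters there. Capitals mark the longest stretch, 17 bases with at most 1 free position, that all 4 genes hold on either strand.
SP140: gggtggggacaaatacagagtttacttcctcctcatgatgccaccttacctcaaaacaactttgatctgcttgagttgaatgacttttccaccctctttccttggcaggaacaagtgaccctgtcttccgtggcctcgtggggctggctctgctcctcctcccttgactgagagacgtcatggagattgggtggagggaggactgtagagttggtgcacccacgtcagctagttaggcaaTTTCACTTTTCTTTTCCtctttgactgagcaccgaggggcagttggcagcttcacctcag
SP140L: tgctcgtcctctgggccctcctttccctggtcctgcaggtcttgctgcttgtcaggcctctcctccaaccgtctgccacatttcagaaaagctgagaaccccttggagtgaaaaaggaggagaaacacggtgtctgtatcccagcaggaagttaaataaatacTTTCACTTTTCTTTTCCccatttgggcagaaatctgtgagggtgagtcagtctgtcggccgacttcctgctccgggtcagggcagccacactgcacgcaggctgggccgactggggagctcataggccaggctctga
SP100: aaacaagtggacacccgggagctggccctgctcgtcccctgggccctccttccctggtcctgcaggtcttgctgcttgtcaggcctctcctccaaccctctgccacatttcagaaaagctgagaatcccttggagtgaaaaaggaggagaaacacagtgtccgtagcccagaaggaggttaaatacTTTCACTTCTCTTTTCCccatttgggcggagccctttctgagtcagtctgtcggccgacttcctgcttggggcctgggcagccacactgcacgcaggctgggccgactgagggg

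The stretch reads TTTCACTTNTCTTTTCC, where N marks the position at which they differ. It began 10 bases before the start in SP140, 87 in SP140L and 64 in SP100. A promoter of SP110 (chr2:230225587-230225886, minus strand) shares 199 bases with that of SP140 and holds the same bases of the genome on its opposite strand, 106 bases before its own start. The other RefSeq promoter of SP110 (chr2:230219935-230220234) held the stretch but for its last base, so it was not a match. The other promoter of SP100 (chr2:230416506-230416805) did not hold the stretch. The printed SP140L and SP100 promoters were identical at 63.0% of 273 positions at their best overlap without gaps, and SP140L and the other SP100 promoter at 31.8% of 245. Of 35116 RefSeq promoters, searched on both strands, 4 held the stretch (0.0114%), 1 from each of these genes. Because the stretch was found by comparing these 4 genes, that share describes it and tests nothing.

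SP100 had the largest and best supported change of the family in SK-OV-3. Its level was 85.2, 89.1 and 85.8 CPM with DMSO and 131, 139 and 139 CPM with BAY-850. All treated libraries lay far above the controls, with a log2 fold change of 0.67 ± 0.06 and an adjusted p of 1.22e-05, and the change stayed between 0.64 and 0.72 in the 18 other settings. In PA-1 the level was 13.6, 12.9 and 12.6 CPM with DMSO and 12.6, 11.1 and 13.8 CPM with BAY-850, and the groups overlapped (log2 fold change -0.06 ± 0.11, adjusted p = 0.781). The responses of the lines differed by 0.72 ± 0.10 on the log2 scale (adjusted p = 0.000273).

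SP110 went from 29.1, 30.5 and 31.1 CPM to 41.1, 40.2 and 49.4 CPM in SK-OV-3, again with no overlap. The log2 fold change was 0.54 ± 0.10 (adjusted p = 0.00227), and the call held in all 18 settings. In PA-1 it was 7.17, 8.25 and 7.30 CPM with DMSO and 6.50, 6.94 and 6.32 CPM with BAY-850, which did not pass (log2 fold change -0.20 ± 0.13, adjusted p = 0.385). The difference between the responses was 0.73 ± 0.14 (adjusted p = 0.00302).

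SP140L and SP140 rose by less or with less support. SP140L was at 26.8, 29.4 and 27.2 CPM with DMSO and 34.1, 34.2 and 38.9 CPM with BAY-850 in SK-OV-3 (log2 fold change 0.38 ± 0.09, adjusted p = 0.0115). Its call was lost without DMSO replicate 3, at an adjusted p of 0.0554. SP140 was a low gene, at 4.02, 4.39 and 5.21 CPM with DMSO and 7.06, 6.02 and 6.65 CPM with BAY-850 (log2 fold change 0.55 ± 0.18, adjusted p = 0.0491), and 12 of 18 settings lost its call. In PA-1, SP140L lay between 20.1 and 22.5 CPM in all 6 libraries (log2 fold change 0.01 ± 0.08, adjusted p = 0.945) and SP140 had 2 to 18 counts a library. Differences between the responses of 0.35 ± 0.12 for SP140L (adjusted p = 0.0575) and 1.56 ± 0.56 for SP140 (adjusted p = 0.0785) did not pass.

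**Figure D3:**
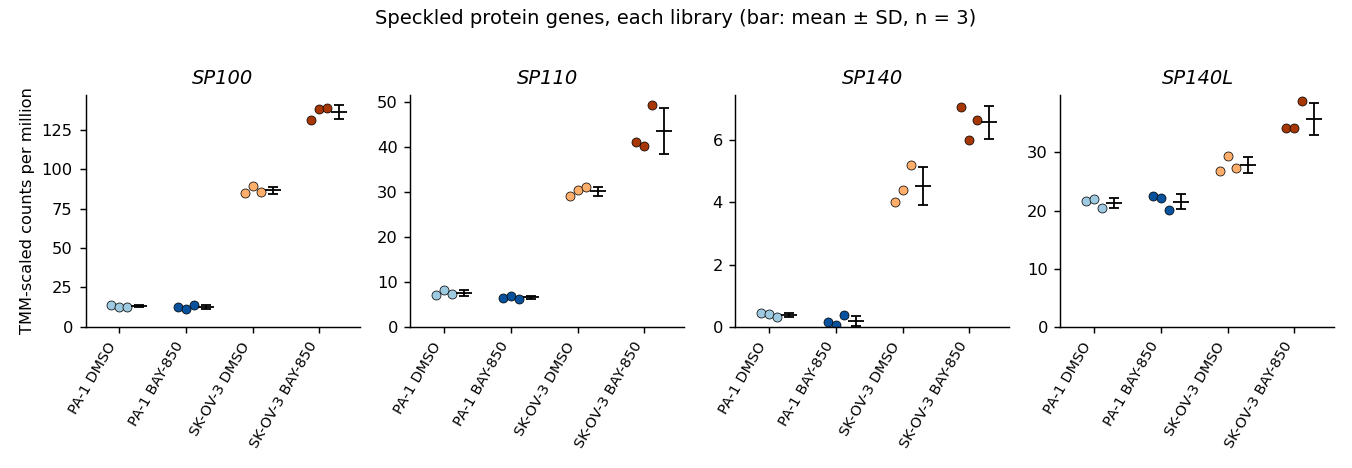
Level of SP100, SP110, SP140 and SP140L in each of the 12 libraries, in TMM-scaled CPM on axes that start at 0. Points are libraries and bars are the mean ± SD of 3. In SK-OV-3 the BAY-850 libraries of all 4 genes lie above the DMSO libraries, and in PA-1 all 4 genes are lower than in SK-OV-3.

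SP100, SP140 and SP140L are similar in sequence, and 91.7% of the expected counts of each were not whole numbers, so reads had been divided among genes. The same holds for other members, with no whole value at all for BRD3, BAZ2A, BAZ2B and BPTF, and with 66.7% of values not whole for ASH1L and 58.3% for KMT2A. SP110 and SP140 share 170 exonic bases on opposite strands, and whether counting used the strand is not given in the sources used here. SP110 counts were all whole.

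Of the acetyltransferases, CREBBP rose in PA-1. CREBBP and its relative EP300 are coactivators that acetylate histone H3 at enhancers. CREBBP went from 48.6, 49.8 and 56.0 CPM to 62.4, 67.1 and 60.2 CPM (log2 fold change 0.30 ± 0.07, adjusted p = 0.0201), and 7 of 18 other settings lost that call. EP300 was at 38.5, 37.5 and 47.0 CPM and then 56.0, 52.8 and 42.5 CPM, and its overlapping groups did not pass (0.30 ± 0.10, adjusted p = 0.0852). In SK-OV-3 the log2 fold changes were -0.14 ± 0.09 and -0.13 ± 0.07, and neither passed. The SAGA acetyltransferases KAT2A and KAT2B were not called in either line. KAT2B, low in PA-1 at 2.35 to 4.25 CPM, had a log2 fold change of -0.48 ± 0.20 there (adjusted p = 0.165).

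Of the BET genes, whose products carry paired bromodomains and recruit elongation factors, BRD3 rose in PA-1. It was at 58.0, 55.2 and 56.1 CPM with DMSO and 69.9, 67.8 and 66.6 CPM with BAY-850 (log2 fold change 0.27 ± 0.06, adjusted p = 0.0116). None of its expected counts was a whole number, and 5 of 18 other settings lost the call. Of BRD3's exonic bases, 18.6% overlap LINC00094 on the other strand. In SK-OV-3 the BRD3 groups overlapped, with a log2 fold change of 0.03 ± 0.07. BRD2 stayed within 171 to 184 CPM in PA-1 and 258 to 275 CPM in SK-OV-3, and was not called. The 95% interval of its log2 fold change ran from -0.11 to 0.13 in PA-1 and from -0.06 to 0.14 in SK-OV-3. BRDT had 2 counts in 1 PA-1 library and 0 in the other 11.

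Among SWI/SNF subunits, PBRM1 fell in SK-OV-3 and SMARCA4 rose in PA-1. PBRM1, the subunit with several bromodomains that defines the PBAF form of the complex, went from 35.4, 42.5 and 42.5 CPM to 26.8, 27.5 and 29.6 CPM in SK-OV-3. The groups did not overlap, the log2 fold change was -0.51 ± 0.09 (adjusted p = 0.00281), and all 18 settings kept the call. In PA-1 it was at 55.3, 51.6 and 51.1 CPM with DMSO and 59.2, 58.6 and 48.1 CPM with BAY-850 (0.07 ± 0.08, adjusted p = 0.619). SMARCA4, the catalytic ATPase, went from 183, 183 and 212 CPM to 236, 238 and 233 CPM in PA-1 (0.29 ± 0.06, adjusted p = 0.0133). That call was lost in 6 of 18 other settings, and in SK-OV-3 SMARCA4 lay between 183 and 202 CPM.

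SMARCA2, the other ATPase of the complex, had 11 to 16 counts in each PA-1 library. In SK-OV-3 it was at 27.5, 30.1 and 30.0 CPM with DMSO and 24.5, 24.7 and 16.0 CPM with BAY-850, the lowest in the library with the fewest genes, and did not pass (log2 fold change -0.42 ± 0.14, adjusted p = 0.0538). BRD7 and BRD9 were not called in either line. Of BRD7's exonic bases, 42.3% overlap ADCY7 on the other strand.

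BAZ2A, whose expected counts also were not whole in any library, was the 1 gene of the family called higher in both lines. It encodes TIP5, the subunit of the NoRC remodeller that silences ribosomal DNA. In PA-1 it went from 125, 124 and 130 CPM to 167, 163 and 132 CPM (log2 fold change 0.29 ± 0.08, adjusted p = 0.0334), with the lowest treated library close to the controls, and 9 of 18 other settings lost that call. In SK-OV-3 it went from 94.3, 112 and 110 CPM to 142, 140 and 127 CPM (0.38 ± 0.07, adjusted p = 0.00323), and that call held in all 18 settings. The responses of the lines differed by 0.08 ± 0.12, with a 95% interval of -0.18 to 0.33.

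CECR2, which partners ISWI ATPases in development, rose in PA-1 from 108, 110 and 116 CPM to 134, 137 and 123 CPM (log2 fold change 0.24 ± 0.06, adjusted p = 0.0261). That call was lost in 8 of 18 other settings. BPTF, the large subunit of the NURF remodeller, was not called in either line, at 0.14 ± 0.07 (log2) in PA-1 and -0.24 ± 0.08 in SK-OV-3 (adjusted p = 0.228 and 0.0666). BAZ1A, BAZ1B and BAZ2B were also not called, and the values of BAZ2B, on the same scale, were -0.25 ± 0.09 in PA-1 and -0.23 ± 0.10 in SK-OV-3.

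BRPF3 was called in opposite directions in the lines. It is a scaffold of MYST acetyltransferase complexes, like BRPF1 and BRD1. Its level went from 45.9, 44.9 and 51.8 CPM to 57.9, 58.1 and 57.1 CPM in PA-1 (log2 fold change 0.28 ± 0.07, adjusted p = 0.0215). BRPF3 lost that call in 8 of 18 other settings. In SK-OV-3 it went from 40.8, 43.0 and 43.7 CPM to 36.3, 34.9 and 30.2 CPM (-0.32 ± 0.08, adjusted p = 0.0150), a call lost without DMSO replicate 2 or 3, where the adjusted p reached 0.0721. The difference of -0.61 ± 0.11 between the responses had an adjusted p of 0.00153 and passed in all 23 other settings. BRPF1, BRD1 and the NuA4 subunit BRD8 were not called in either line, with log2 fold changes between -0.17 and 0.18.

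Of the TRIM proteins, corepressors that also read histone tails with a PHD finger, TRIM28 rose in PA-1 and TRIM33 in SK-OV-3. TRIM28, the partner of KRAB zinc finger proteins in silencing retroelements, was at 506, 478 and 500 CPM with DMSO and 559, 581 and 594 CPM after treatment in PA-1 (log2 fold change 0.23 ± 0.05, adjusted p = 0.0171). TRIM28 lost that call in 5 of 18 other settings. In SK-OV-3 it was at 352, 330 and 325 CPM and then 309, 320 and 274 CPM, which did not overlap or pass (-0.14 ± 0.06, adjusted p = 0.107). TRIM33, which binds SMAD proteins, went from 131, 138 and 145 CPM to 179, 169 and 166 CPM in SK-OV-3 (0.33 ± 0.06, adjusted p = 0.00183, held in all 18 settings) and was not called in PA-1 (0.10 ± 0.06, adjusted p = 0.327). TRIM24 and TRIM66 were not called in either line.

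PHIP and ZMYND11 fell in SK-OV-3. PHIP, a WD-repeat protein first found as a partner of the insulin receptor pathway and a substrate receptor of a CUL4 ubiquitin ligase, went from 64.4, 72.7 and 74.9 CPM to 53.5, 55.7 and 52.7 CPM (log2 fold change -0.38 ± 0.07, adjusted p = 0.00289, held in all 18 settings). Its PA-1 value was 0.02 ± 0.07. ZMYND11, a reader of the H3.3 histone methylated at lysine 36, went from 124, 140 and 151 CPM to 113, 116 and 106 CPM (-0.30 ± 0.07, adjusted p = 0.0109), lost without DMSO replicate 2 or 3, where the adjusted p reached 0.0635. BRWD1, BRWD3 and ZMYND8 were not called in either line. Nor were the methyltransferases ASH1L and KMT2A or the TFIID subunit TAF1, whose log2 fold changes lay between -0.23 and 0.23.

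The called members of PA-1 all lay above the median GC content of the genes tested. How many of all genes called higher there lay above it was not counted. CREBBP, BRD3, SMARCA4, BAZ2A, CECR2, BRPF3 and TRIM28 lay at percentiles 57.9 to 86.9 of exonic GC content, while the family's median was 46.9% GC and that of all genes 49.7%. Over 14775 genes of PA-1, which are not independent replicates, the Spearman correlation of the log2 fold change with GC content was 0.37, against 0.10 in SK-OV-3. With the trend removed, these members had log2 fold changes of 0.12 (TRIM28) to 0.24 (CREBBP) and adjusted p-values of 0.0635 (CREBBP) to 0.168 (TRIM28). With scaling by library size only, the log2 fold changes were 0.19 to 0.26 and the adjusted p-values 0.0946 to 0.167. The 11 calls of SK-OV-3 spread over percentiles from 1.13 (PHIP) to 65.4 (BRPF3), and 13 members were called there with the trend removed. The members tested in PA-1 had a median exonic length of 9572 bases, against 4905 for all genes. Over all genes, the Spearman correlation of the log2 fold change with exonic length was 0.14 in PA-1 and -0.05 in SK-OV-3.

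**Figure D4:**
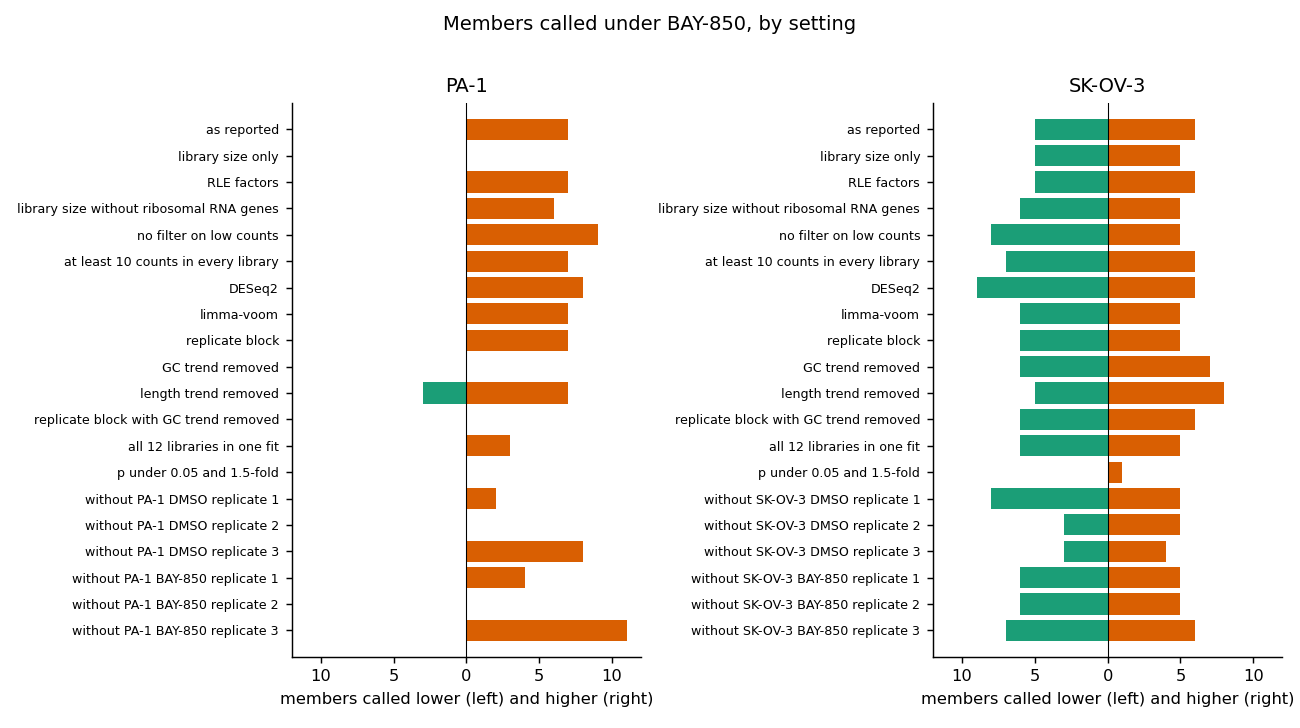
Number of family members called higher (right) and lower (left) under BAY-850 in PA-1 and SK-OV-3, as reported and under each other setting run. Calls over all genes also shifted with the setting and are not drawn. In PA-1 the bars vanish when libraries are scaled by size only, when the GC trend is removed, at a 1.5-fold limit and without replicate 2 of either group, and in SK-OV-3 they range from 7 to 15 except for 1 at the 1.5-fold limit.

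The difference between the responses was tested directly in one fit of all 12 libraries, so it rests on the same libraries as the values above. Of 39 members tested, 10 differed, 2 with a higher response in SK-OV-3 and 8 with a lower one. Of all 16830 genes tested, 14.5% differed, 6.7% higher and 7.77% lower. The split of the members was 2 and 3 when libraries were scaled by size only, and 5 higher and 4 lower when the trend on gene length was removed. SP100 and SP110 were the higher ones. BRPF3, PBRM1, TRIM28, PHIP, SMARCA4, CREBBP, BPTF and ASH1L were lower, between -0.61 and -0.33. SP100, SP110, BRPF3, PBRM1 and TRIM28 passed in all 23 other settings, PHIP in 22 and SMARCA4 in 19, while CREBBP passed in 14, BPTF in 12 and ASH1L in 7.

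With DMSO alone the lines differed in 32 of 39 members, 22 higher and 10 lower in SK-OV-3. Over all 16070 genes tested, 40.1% were higher and 40.2% lower, and each line's DMSO libraries are the controls of the comparisons above. ATAD2 was higher in SK-OV-3 by 0.94 ± 0.07 on the log2 scale (adjusted p = 1.12e-07) and ATAD2B lower, a log2 difference of -0.999 ± 0.138 (adjusted p = 2.11e-05).

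CECR2 and SMARCA2 were each all but switched off in 1 line, and TRIM24 was far lower in SK-OV-3 but still expressed. CECR2 had 12778 counts over the PA-1 DMSO libraries and 8 over those of SK-OV-3, a ratio at equal depth of 1613 with a 95% counting interval of 818 to 3737. SMARCA2 had 41 counts over the PA-1 DMSO libraries and 3390 over those of SK-OV-3, a ratio of 81.9 with an interval of 60.2 to 114. SMARCA4, the alternative ATPase to SMARCA2, did not differ beyond its error (0.02 ± 0.06, adjusted p = 0.836, 95% interval -0.13 to 0.16). TRIM24, a nuclear receptor coregulator, was at 127, 135 and 124 CPM in PA-1 and 12.3, 14.5 and 16.5 CPM in SK-OV-3 (log2 difference -3.16 ± 0.09).

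The speckled protein genes were all higher in SK-OV-3 with DMSO, by 3.56 ± 0.29 for SP140, 2.73 ± 0.07 for SP100, 1.99 ± 0.10 for SP110 and 0.38 ± 0.08 for SP140L on the log2 scale. KAT2B (1.59 ± 0.15), ASH1L (1.55 ± 0.09), ZMYND11 (1.52 ± 0.07), BAZ1A (1.34 ± 0.08), EP300 (1.199 ± 0.095) and TAF1 (1.11 ± 0.07) were higher as well. ZMYND8, a reader that joins repressive complexes, was lower (-1.43 ± 0.06), as were the 3 WD-repeat genes BRWD1, BRWD3 and PHIP, between -0.89 and -0.59. SMARCA4, BRD7, BAZ1B, BAZ2B, BPTF, BRPF3 and TRIM66 were not called.

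**Figure D5:**
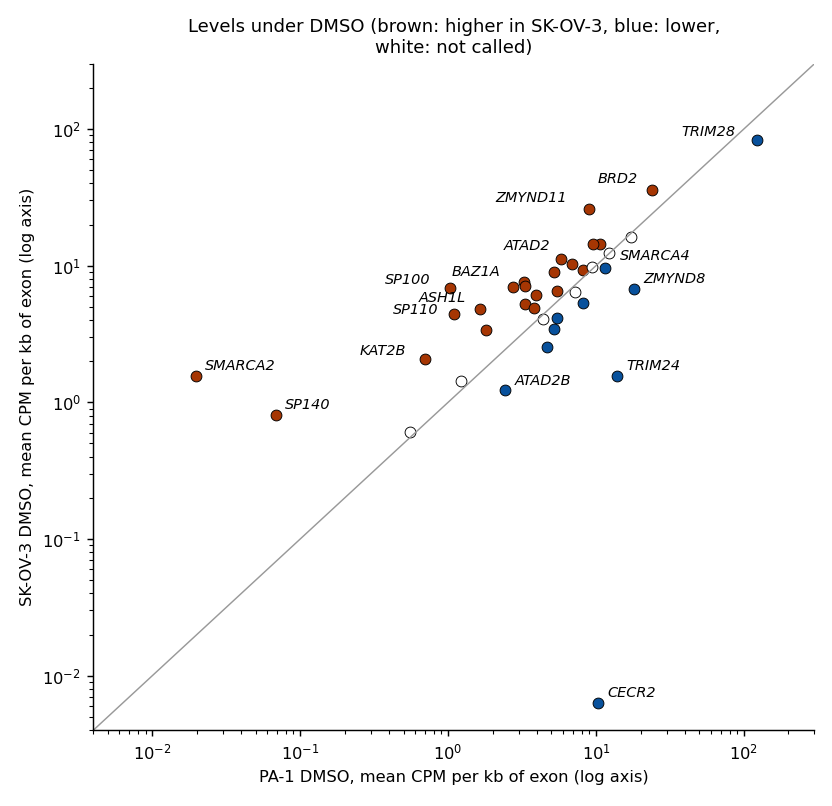
Mean level of the family members with DMSO in PA-1 (horizontal) and SK-OV-3 (vertical), in CPM per kilobase of exon on log axes, with the line of equal levels in grey. Each point is 1 gene, the 22 called higher in SK-OV-3 in brown, the 10 called lower in blue and the others in white. CECR2 lies far below the line and SMARCA2 and SP140 far above it, and BRDT and TAF1L are not drawn.

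The genes whose pattern over the 12 libraries was most like that of ATAD2 were FAM98B (Pearson r = 0.9754), EXO1 (0.973), CCDC88A (0.967), BCLAF1 (0.966) and PDIA3 (0.962), of 12055 genes ranked. The measure was log2 CPM centred within each line, so the points share the treatment and the library, and r is given as a description. The family members nearest to ATAD2 were PHIP at rank 175 (r = 0.881) and PBRM1 at rank 207 (r = 0.872), and SP100 was at -0.80. The log2 fold changes of the top 5 genes in SK-OV-3, which their choice by likeness to ATAD2 in the same libraries already fixes in direction, ran from -0.51 (CCDC88A) to -0.19 (PDIA3).

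Genes that work with the bromodomain proteins were counted by lists, to be read against the 7.13% of all genes called in PA-1 and the 20.4% in SK-OV-3. Calls of the genes on these lists were not checked under the other settings. Over all genes of PA-1, 707 were called higher as reported and 398 with the GC trend removed. Of 21 SWI/SNF subunits without a bromodomain, 4 were called higher in PA-1 (19.0%, against 4.65% of all genes called higher). In SK-OV-3, 3 were called higher and 3 lower (28.6%). Smallest in adjusted p were ARID1B (log2 fold change 0.24 ± 0.06, adjusted p = 0.0352) and SMARCC1 (0.23 ± 0.06, adjusted p = 0.0386) in PA-1, and DPF2 (0.35 ± 0.07, adjusted p = 0.00320) and SMARCB1 (-0.31 ± 0.07, adjusted p = 0.00639) in SK-OV-3. Of 8 ISWI and NURF partners, none was called in PA-1 and 3 were lower in SK-OV-3 (37.5%, against 9.56% of all genes called lower). POLE3, a histone-fold subunit, fell from 107 ± 3.46 to 80.5 ± 0.79 CPM (-0.40 ± 0.06, adjusted p = 0.000427) and the histone chaperone RBBP4 from 122 ± 8.64 to 92.9 ± 1.03 CPM (-0.38 ± 0.06, adjusted p = 0.00123). On this short list, SMARCA1, SMARCA5 and RSF1 were not called in SK-OV-3 (adjusted p = 0.367, 0.181 and 0.303).

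Of 17 genes of the MYST acetyltransferase complexes, 2 were called higher and 1 lower in PA-1 (17.6%), and 5 lower in SK-OV-3 (29.4%, against 9.56% of all genes called lower). ING3, a plant homeodomain subunit of NuA4, fell in PA-1 from 30.0 ± 0.32 to 21.4 ± 0.87 CPM (log2 fold change -0.49 ± 0.07, adjusted p = 0.000990) and the ATPase EP400 rose (0.29 ± 0.07, adjusted p = 0.0208). In SK-OV-3 the enhancer of polycomb homologs EPC2 (-0.37 ± 0.08, adjusted p = 0.00962) and EPC1 (-0.35 ± 0.08, adjusted p = 0.0122) fell. Of 17 SAGA and ATAC subunits, 1 was higher and 1 lower in PA-1, YEATS2 (0.25 ± 0.06, adjusted p = 0.0330) and MBIP (-0.34 ± 0.07, adjusted p = 0.0136), and 2 were higher and 2 lower in SK-OV-3, with WDR5 (-0.26 ± 0.06, adjusted p = 0.00733) and USP22 (-0.20 ± 0.05, adjusted p = 0.0215) first. The list's shares of 11.8% in PA-1 and 23.5% in SK-OV-3 were near those of all genes.

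Of 18 genes on the histone deacetylase list, the HDAC and SIRT genes, 2 were higher in PA-1 (11.1%) and 4 in SK-OV-3 (22.2%). None was lower in either line. Of all genes, 7.13% and 20.4% were called in either direction, and 4.65% and 10.8% were called higher. Log2 fold changes were above 0 for 10 of the 18 in PA-1 and 15 in SK-OV-3, against 49.6% and 48.8% of all genes. HDAC5, a class IIa enzyme, went from 21.7 ± 2.11 to 40.03 ± 0.11 CPM in SK-OV-3 (log2 fold change 0.90 ± 0.09, adjusted p = 3.86e-05), and HDAC11 had 0.35 ± 0.09 (adjusted p = 0.0146). HDAC7 (0.26 ± 0.06, adjusted p = 0.0157) and HDAC3 (0.24 ± 0.06, adjusted p = 0.0274) rose in PA-1. Of 4 YEATS readers of acetyl-lysine, YEATS2 was higher and YEATS4 lower (-0.26 ± 0.06, adjusted p = 0.0187) in PA-1, and none was called in SK-OV-3, a list too short to set against the 7.13% and 20.4% of all genes.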

How the data were processed

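RNA of PA-1 and SK-OV-3 cells, 3 biological replicates of each of the 4 groups, was sequenced by the authors on an Illumina instrument from strand-specific libraries. The methods describe oligo-dT purification, and the series' design text describes depletion of ribosomal RNA. The deposited values are expected counts per gene symbol from RSEM 1.2.15 with Bowtie2 2.1.0 on hg38, per the submitters' processing notes, with no normalization. The annotation and any use of strand in counting are not given in the sources used here. RSEM divides reads that fit several genes, and 8.94% to 12.4% of the values in a library were not whole.

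Expected counts were rounded, scaled by TMM and filtered with filterByExpr in edgeR 4.0.16 (R 4.3.3). Differences were tested with the quasi-likelihood test, without a replicate term, within each line, between lines under DMSO, and for the interaction over all 12 libraries. P-values were adjusted over all genes tested by the Benjamini-Hochberg method, and called means an adjusted p under 0.05. The SE is the log2 fold change divided by the square root of F. CPM are TMM-scaled over all 12 libraries. Alternatives were library size scaling, RLE factors, library size without ribosomal RNA genes, other count filters, DESeq2 1.42.0, limma-voom 3.58.1, the replicate block, removal of trends on GC content or length (loess span 0.5), one fit of all 12 libraries, a 1.5-fold limit with an unadjusted p under 0.05, and leaving out each library. Depth between 34544505 and 51840233 counts limits genes below 1 CPM, and intervals of count ratios cover counting error only. The fits were tested on simulated counts.

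Replicate numbers were not treated as pairs. Gene positions, exonic lengths and GC contents came from GENCODE on GRCh38, where 1849 of the symbols had no match. Every family member is accounted for, members called get values per library, and of each partner list the 2 called genes with the smallest adjusted p per line are named. The family, the lists and the tests were chosen with earlier results of these data known.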

Additional observations from a re-analysis of the deposited data

Results flagged for a closer look

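For 10 family members the response to BAY-850 differed between the lines by the interaction test of edgeR's quasi-likelihood fit over all 12 libraries. The values are the log2 fold change in SK-OV-3 minus that in PA-1. SP100 (0.72, adjusted p = 0.000273) and SP110 (0.73, adjusted p = 0.00302) responded more in SK-OV-3. BRPF3 had -0.61 (adjusted p = 0.00153), PBRM1 -0.59 (adjusted p = 0.00611) and TRIM28 -0.38 (adjusted p = 0.00557). PHIP had -0.41 (adjusted p = 0.0128), SMARCA4 -0.33 (adjusted p = 0.0135), CREBBP -0.45 (adjusted p = 0.0264), BPTF -0.39 (adjusted p = 0.0317) and ASH1L -0.47 (adjusted p = 0.0493). With the GC trend removed, the interaction was -0.29 for TRIM28 (adjusted p = 0.00190) and -0.36 for CREBBP (adjusted p = 0.0462), which passed, and -0.25 for SMARCA4 (adjusted p = 0.0596), which did not. Their PA-1 log2 fold changes in that setting, 0.12, 0.24 and 0.20, were no longer called.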

How the results depend on the processing

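In PA-1, where 7 members were called, 0 were called with library size only, with the GC trend removed, with the replicate block and the GC trend removed together, and at an unadjusted p under 0.05 with at least 1.5-fold. All 12 libraries in one fit gave 3, and leaving out a library gave 0 to 11. In SK-OV-3, where 11 were called, the 1.5-fold limit gave 1 and leaving out a library gave 7 to 13, the lowest without DMSO replicate 3. The interaction gave 10, with 5 for library size only, 17 for DESeq2 and 5 at the 1.5-fold limit, and 7 to 15 with a library left out. Between the lines under DMSO, 31 to 35 members were called in every setting but the 1.5-fold limit, which gave 23. Calls over all genes shifted too, in PA-1 from 707 higher and 378 lower to 398 and 144 with the GC trend removed. For the interaction they went from 1128 and 1307 to 1062 and 773 with library size only and 1560 and 1711 with DESeq2. In SK-OV-3 they went from 1662 and 1468 to 1124 and 859 without DMSO replicate 3. The cause of these shifts was not tested. Of 1197 values of single members under an alternative, 114 lost their call, 6 gained one and 0 reversed. The replicate block gave 7 members in PA-1, 11 in SK-OV-3, 7 in the interaction and 34 between the lines. Correlations of the deviations of same-numbered libraries ran from -0.09 to 0.08 in PA-1 and 0.00 to 0.03 in SK-OV-3. Those of differently numbered libraries ran from -0.25 to 0.17 in PA-1 and from -0.04 to 0.03 in SK-OV-3. Deviations from means of 3 libraries cannot show whether replicates were paired. A fit of all 12 libraries was not a separate setting for the interaction, and was not run between the lines. At this depth SP140 and SMARCA2 in PA-1, at 2 to 18 counts a library, and CECR2 in SK-OV-3 could not show a response of moderate size.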
